A study of Mus musculus with 8 samples.

Results

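Cardiac macrophages are described here by 10 marker genes, Cd68, Adgre1, C1qa, C1qb, C1qc, Csf1r, Mrc1, Cd163, Lyve1 and Retnla. They were chosen by name, with earlier results of these data known. All 10 were found among the 49671 genes of the deposited table. Left ventricular RNA was sampled from male C57BL/6N mice, aged 8 weeks when the study began, 4 weeks after surgery. The surgery was either sham or transverse aortic constriction (TAC), a band around the aorta that overloads the left ventricle. Mice ate either SFA, a low fat diet, or SFA-EAA, in which 93.5% of the casein was replaced by free essential amino acids. Surgery and diet together make 4 groups with 2 libraries each (sham_SFA, TAC_SFA, sham_SFA-EAA and TAC_SFA-EAA in the labels). No transgene, gene deletion or drug is named for any group. Whether both libraries of a group are from different mice is not labelled, so the p-values refer to the spread among libraries, which may be technical.

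Macrophages are the main resident leukocytes of the heart, where they clear dead cells and debris and take part in the response to overload. Some descend from embryonic precursors and renew themselves in place, and others are replaced from blood monocytes. Cd68 and Adgre1 (F4/80) mark macrophages broadly. Csf1r is the receptor for the survival factor of the lineage, and C1qa, C1qb and C1qc encode the chains of C1q, which starts the classical complement pathway. Mrc1 (CD206), Cd163 and Lyve1 are endocytic receptors of resident and perivascular macrophages. Retnla (Fizz1, RELMα) is a small secreted protein that macrophages make when IL-4 or IL-13 activates STAT6. Other cells, including adipocytes, can express it as well.

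The upstream sequence is printed for Retnla, which fell after TAC, and for C1qb, which rose, with C1qc and Cd68 for comparison. Each comes from RefSeq on GRCm38.p6, whose promoter table held 6 of the 10 genes. The window is the 250 bases before the RefSeq start, shortened to those bases outside the gene as the deposited table places it. Sequences run 5′ to 3′ on the gene's strand, with motif matches in capitals. The motifs, searched on both strands, were TTCNNNNGAA for STAT6, TTGCNNAA for C/EBP and GAGGAA for the myeloid factor PU.1, which reads TTCCTC on the other strand. Retnla is at chr16:48842359-48842551 (plus strand), C1qb at chr4:136886201-136886450 (minus), C1qc at chr4:136893066-136893164 (minus) and Cd68 at chr11:69666171-69666420 (minus).
Retnla: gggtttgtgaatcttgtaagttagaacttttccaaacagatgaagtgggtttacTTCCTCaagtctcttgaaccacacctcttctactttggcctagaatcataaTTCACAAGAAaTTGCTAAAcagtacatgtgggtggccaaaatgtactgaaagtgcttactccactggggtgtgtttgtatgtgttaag
C1qb: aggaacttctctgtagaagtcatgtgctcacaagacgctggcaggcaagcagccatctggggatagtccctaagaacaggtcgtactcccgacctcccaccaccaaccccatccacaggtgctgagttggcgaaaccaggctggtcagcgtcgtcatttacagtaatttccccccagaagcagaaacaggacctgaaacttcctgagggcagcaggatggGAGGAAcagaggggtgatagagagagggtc
C1qc: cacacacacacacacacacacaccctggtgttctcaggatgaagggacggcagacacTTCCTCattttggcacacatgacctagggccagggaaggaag
Cd68: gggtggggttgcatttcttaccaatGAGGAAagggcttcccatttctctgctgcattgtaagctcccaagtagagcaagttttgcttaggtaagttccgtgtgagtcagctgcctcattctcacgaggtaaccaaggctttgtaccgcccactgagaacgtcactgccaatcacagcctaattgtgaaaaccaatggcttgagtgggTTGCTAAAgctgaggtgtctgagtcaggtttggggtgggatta
Retnla held a match to each motif. TTCACAAGAA (STAT6) lay 145 to 136 bases before the RefSeq start, TTGCTAAA (C/EBP) 134 to 127 and TTCCTC (PU.1) 196 to 191. None of the other 5 genes in the promoter table had a STAT6 match, which 5.85% of 32851 RefSeq promoter windows of this length held. Cd68 had the C/EBP letters TTGCTAAA 43 to 36 bases before its start and a PU.1 match 225 to 220 before it. The C/EBP motif was in 9.56% of windows and the PU.1 motif in 23.3%. C1qb had its PU.1 match 30 to 25 bases before the start, C1qc had one 193 to 188 before it, Mrc1 had 3 and Cd163 had none. A match describes letters, not a bound site.

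All 10 genes lie on GRCm38 as the deposited table gives them. C1qb (chr4:136880129-136886187), C1qc (chr4:136889804-136893065) and C1qa (chr4:136895917-136898803) are neighbours on the minus strand within 18.7 kb. Retnla is at chr16:48842552-48844461 and Cd68 at chr11:69664213-69666153 (minus). Adgre1 is at chr17:57358686-57483529, Mrc1 at chr2:14229392-14332057 and Cd163 at chr6:124304656-124330527. Lyve1 is at chr7:110850607-110863239 (minus) and Csf1r at chr18:61105572-61132149. Genes with no strand given here are on the plus strand. Csf1r was the only one whose exons overlap those of another gene (Hmgxb3, opposite strand), so reads could be shared if strand was not used in counting.

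Values are the authors' normalized values (no unit), and a library's values summed to 5136441 to 6298743 over all genes. A value near 1 stands for about 1 read: the most frequent low value of a library lay between 0.82 and 1.15. The summed level of 8 cardiomyocyte genes was 210716 to 310778. The atrial light chain Myl7 was high in a pair of libraries, at 621.3 (replicate 1 of sham SFA) and 321.9 (replicate 2 of TAC SFA). It lay between 1.28 and 43.0 elsewhere. Of the other atrial genes listed, Myl4 (631.3 and 629.1), Sln (135.1 and 128.5) and Dkk3 (176.0 and 375.7) were highest in the same pair. Stk39 was not. Results are therefore also given without that pair. Libraries also differed by GC content: over 10221 genes, the rank correlation of a gene's deviation from its mean log2 value over the libraries with its transcript's GC content was 0.344 to 0.516 with SFA (4 libraries) and -0.622 and -0.430 in sham SFA-EAA. For TAC SFA-EAA it was 0.431 in replicate 1 and -0.730 in replicate 2. GC-corrected values (correlations of -0.029 to 0.038) are given where they move a result.

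Per kilobase of gene length, mean levels over the 8 libraries were highest for the complement chains. C1qb averaged 215 per kb, C1qa 196 and C1qc 96.6. Csf1r followed at 39.3 and Lyve1 at 34.0, then Cd68 at 23.1, Mrc1 at 22.8, Retnla at 18.7, Adgre1 at 18.7 and Cd163 at 16.1. C1qa was above C1qc and C1qc above Csf1r in 8 of 8 libraries, while C1qb was above C1qa in 6, Csf1r above Lyve1 in 5 and Lyve1 above Cd68 in 6. From Cd68 downward, neighbours in this order did not separate: each was above the next in 4 to 6 of 8 libraries. Retnla ran from 1.56 to 61.8 per kb, the widest of the 10 as a ratio of highest to lowest library; in absolute units C1qa, C1qb and C1qc ranged more widely.

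**Figure D1:**
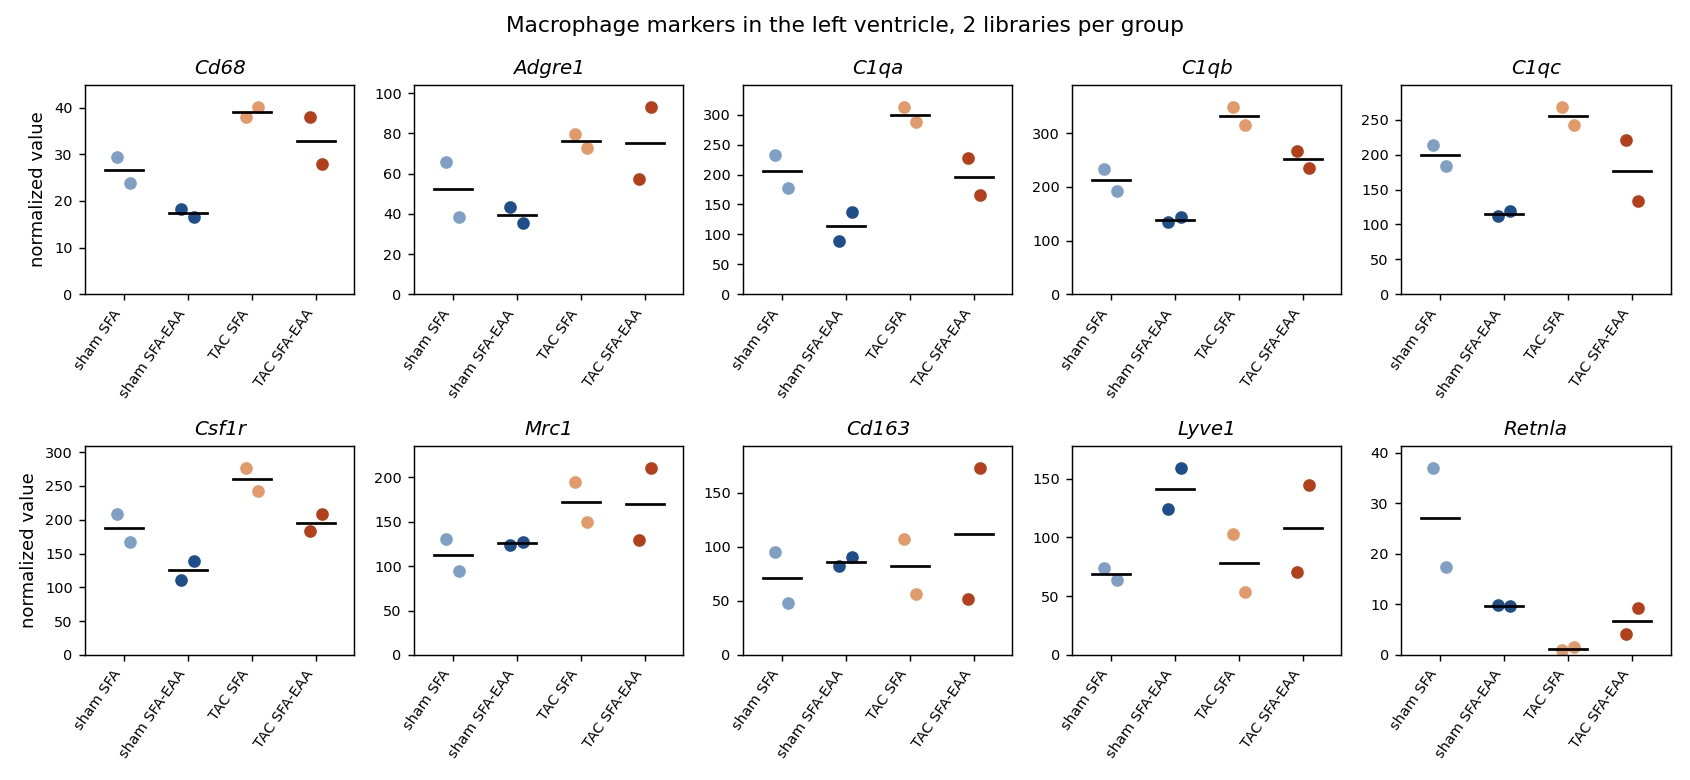
Normalized value (vertical axis, linear, from 0, a different scale in each panel) of the 10 marker genes in each of the 4 groups (horizontal axis). Each point is 1 library and each line the mean of 2. Retnla is highest in sham SFA (17.3 and 37.0) and lowest in TAC SFA (0.932 and 1.55), while C1qb is higher in both TAC groups than in the sham group of the same diet.

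After TAC, Retnla fell and most other macrophage markers had higher values. Retnla had values of 37.0 and 17.3 in sham SFA and 0.932 and 1.55 in TAC SFA, so the groups did not overlap. For this and every other gene named in this text, 2 libraries against 2 can separate without any change. The share of all genes that separated in this way was not counted. Nor was the share with all 4 TAC libraries above all 4 sham libraries. The fitted change was -3.57 on the log2(value + 1) scale (SE 0.519, 95% interval -4.74 to -2.40, adjusted p = 0.0168, limma-trend with Benjamini-Hochberg adjustment over 16432 genes), or 11.9-fold lower. Retnla was the only one of the 10 markers called under SFA, where 1.25% of all genes tested were called. Under SFA-EAA the Retnla values were 9.88 and 9.61 in sham and 4.11 and 9.20 after TAC. The groups did not overlap there either, but 1 TAC library lay just under the sham pair, and the change of -0.57 (SE 0.519, interval -1.75 to 0.60) did not pass (adjusted p = 0.842). In tissue RNA, a change in the number of macrophages and a change in RNA per macrophage cannot be told apart.

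In reads, Retnla rests on few. Each library's value divided by its most frequent low value gave about 42 and 18 reads in sham SFA, 9 and 9 in sham SFA-EAA, 1 and 2 in TAC SFA and 4 and 8 in TAC SFA-EAA. Summed over libraries, sham SFA held 60 such reads and TAC SFA 3, a ratio of 20 with an exact binomial 95% interval of 6.52 to 99.7. For sham SFA-EAA over TAC SFA-EAA the ratio was 1.5 (18 against 12 reads, 0.684 to 3.41). These intervals cover counting error only, and the reads are approximate: 61.3% to 100% of a library's values below 4 lay within 0.1 of a whole step. The call under SFA was lost without either sham SFA, either TAC SFA or either sham SFA-EAA library (adjusted p of 0.0634 to 0.178, limma-trend), and with both libraries of high Myl7 left out (-3.25, adjusted p = 0.843). It stayed with either TAC SFA-EAA library left out (adjusted p = 0.0264 and 0.0276).

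C1qb rose after TAC when both diets were averaged. Its values were 234.2 and 192.5 in sham SFA, 134.1 and 143.4 in sham SFA-EAA, 348.3 and 315.3 in TAC SFA, and 267.8 and 235.5 in TAC SFA-EAA. Every TAC library was above both sham libraries of its diet. Each was also above all 4 sham libraries, by a narrow margin (235.5 against 234.2). The share of all genes that separated so was not counted. The averaged change was 0.75 log2 (SE 0.106, interval 0.51 to 0.99, adjusted p = 0.0114, limma-trend), or 1.68-fold. By diet it was 0.64 (SE 0.150, adjusted p = 0.0853) under SFA and 0.85 (SE 0.150, adjusted p = 0.211) under SFA-EAA, neither called. Averaged over diets, C1qb was called up and Retnla was called down (-2.07, SE 0.367, adjusted p = 0.0281), 2 of the 10 markers, beside 2.11% of all genes (227 up and 120 down). The C1qb call was lost without sham SFA replicate 2, either sham SFA-EAA library or either TAC SFA library (adjusted p of 0.0640 to 0.0936) and without both libraries of high Myl7 (adjusted p = 0.429). The averaged Retnla call was lost without any single library other than TAC SFA-EAA replicate 2 (adjusted p of 0.0539 to 0.155) and without both libraries of high Myl7 (adjusted p = 0.496).

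The other chains of C1q had positive values in the same contrast but were not called. C1qa was 232.6 and 177.7 in sham SFA, 88.8 and 138.2 in sham SFA-EAA, 312.3 and 288.2 in TAC SFA and 227.7 and 165.0 in TAC SFA-EAA. Within each diet its TAC libraries lay above its sham libraries, with an averaged change of 0.68 (SE 0.171, adjusted p = 0.0882). C1qc was 214.3 and 184.2, 112.1 and 118.5, 267.7 and 241.8, and 220.4 and 133.8 in the same order of groups. It too did not overlap within a diet, and its averaged change was 0.46 (SE 0.156, adjusted p = 0.188). The proportions of the chains varied over the 8 libraries, with C1qa at 0.662 to 0.993 of C1qb and C1qc at 0.568 to 0.957. The lowest were in sham SFA-EAA replicate 1 for C1qa and in TAC SFA-EAA replicate 2 for C1qc.

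Among the broad markers, Csf1r was nearest to the threshold. Its values were 208.4 and 166.7 in sham SFA, 111.3 and 139.5 in sham SFA-EAA, 276.3 and 242.6 in TAC SFA, and 182.7 and 208.8 in TAC SFA-EAA, without overlap inside either diet. The averaged change was 0.56 (SE 0.125, adjusted p = 0.0608). Cd68, a lysosomal glycoprotein, was 29.3 and 23.7, 18.2 and 16.7, 38.0 and 40.0, and 37.9 and 27.9 (0.70, SE 0.200, adjusted p = 0.126). Adgre1, the F4/80 adhesion receptor, was 65.9 and 38.3, 43.2 and 35.4, 79.7 and 72.7, and 57.5 and 93.0 (0.74, SE 0.222, adjusted p = 0.147). For both genes the TAC libraries also lay above the sham libraries of the same diet, a separation whose share over all genes was not counted.

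The endocytic receptors were less uniform. Mrc1, the mannose receptor, was 131.1 and 94.2 in sham SFA, 124.2 and 126.8 in sham SFA-EAA, 194.7 and 150.1 in TAC SFA and 129.4 and 210.4 in TAC SFA-EAA without overlap inside either diet (averaged change 0.50, SE 0.181, adjusted p = 0.218). Cd163, the receptor for haemoglobin-haptoglobin complexes, was 94.9 and 48.2, 82.1 and 90.3, 107.5 and 56.4, and 51.5 and 172.8. Its libraries overlapped between sham and TAC under both diets (0.17, interval -0.70 to 1.03). Lyve1, a hyaluronan receptor, was 73.8 and 63.9, 124.2 and 159.0, 102.7 and 53.8, and 70.9 and 144.7, also overlapping (-0.18, interval -0.77 to 0.42). In each TAC group the same library was the higher for Mrc1, Cd163 and Lyve1: replicate 1 for SFA and replicate 2 for SFA-EAA. The same held for Adgre1 and Csf1r. In both groups the higher library also had the lower correlation with GC content (0.344 against 0.464 for SFA, -0.730 against 0.431 for SFA-EAA). The part of GC content in this order was not tested.

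**Figure D2:**
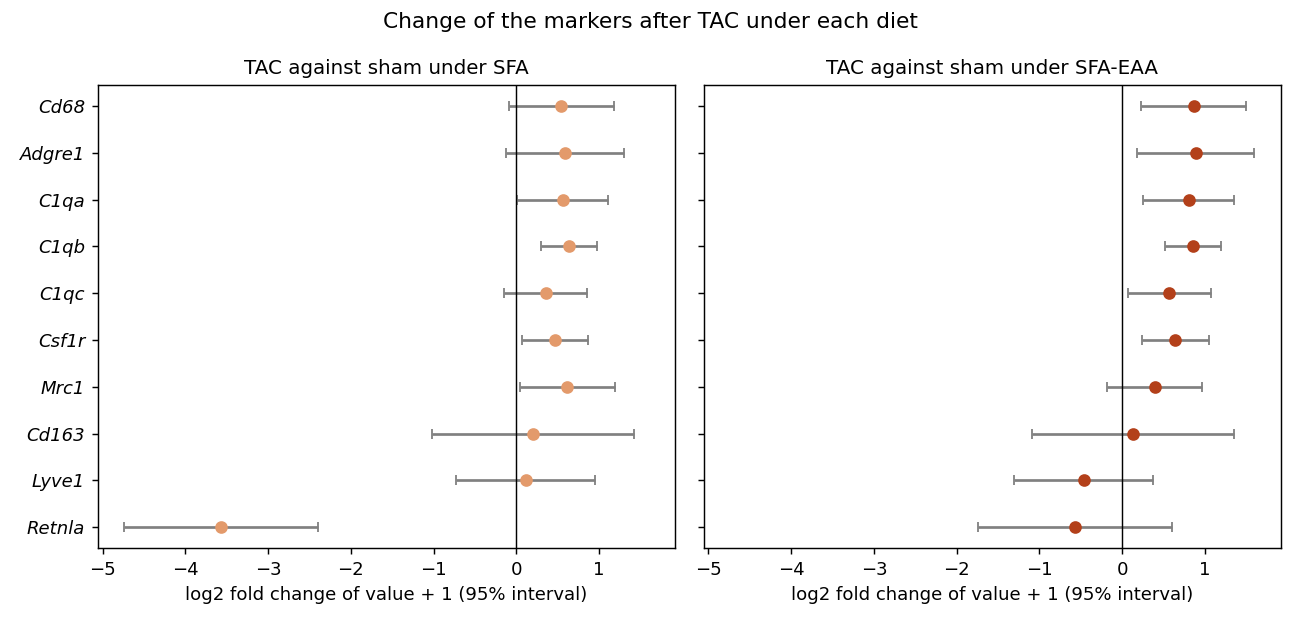
Log2 fold change of value + 1, TAC against sham (horizontal axis), for each marker (vertical axis) under SFA (left) and SFA-EAA (right); points are limma-trend estimates and bars their 95% intervals, unadjusted. Retnla stands at -3.57 under SFA and at -0.57 under SFA-EAA, and the other 9 lie between -0.47 and 0.89.

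Counted together, 9 of 10 markers had a positive change after TAC under SFA (median 0.51, against 0.01 over all genes tested) and 8 of 10 under SFA-EAA (median 0.61), where none was called and 0.0122% of all genes were. Averaged over diets 8 of 10 were positive, with a median of 0.53 against 0.01 over all genes, and 0.56 without Retnla. The GC correction moved the number called: with it, Adgre1 (adjusted p = 0.0478), C1qa (0.0278), C1qb (0.0063), C1qc (0.0398), Csf1r (0.0391) and Mrc1 (0.0390) were called up and Retnla (0.0060) down in the averaged contrast, 7 of 10, where 6.19% of all genes were called. Leaving out single libraries changed this to 1 (replicate 2 of sham SFA left out), 5 (replicate 1 of sham SFA) or 6 (replicate 1 of TAC SFA-EAA). It was 2 when replicate 1 of sham SFA-EAA, replicate 1 of TAC SFA or replicate 2 of TAC SFA-EAA was left out, and 3 for the other two. Retnla under SFA was -3.58 after correction (adjusted p = 0.0024), the only marker called there beside 5.02% of genes.

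Retnla stood apart from the other markers. The mean log2 level of the other 9 was subtracted from that of Retnla in each library. The difference was -1.65 and -2.26 in sham SFA, -2.92 and -3.09 in sham SFA-EAA, -6.34 and -5.62 in TAC SFA, and -4.46 and -3.74 in TAC SFA-EAA. The 4 groups did not overlap on this scale. The group means differed between TAC and sham by -4.02 under SFA and by -1.09 under SFA-EAA. The difference spanned 4.69 log2 units over the libraries, whereas the same quantity for each other marker spanned from 0.77 (Mrc1) to 1.96 (Lyve1).

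On a linear scale, Retnla amounted to 28.8 and 17.5 for every 1000 units of the other 9 markers in sham SFA. It was 11.8 and 9.93 in sham SFA-EAA, 0.540 and 1.06 in TAC SFA, and 3.30 and 6.61 in TAC SFA-EAA. The summed level of the other 9 was higher after TAC within each diet, at 1284 and 990 in sham SFA, 838 and 968 in sham SFA-EAA, 1727 and 1461 in TAC SFA, and 1246 and 1392 in TAC SFA-EAA. Relative to Mrc1 alone, with which it shares IL-4 inducibility, Retnla ranged from 0.0048 in TAC SFA replicate 1 to 0.282 in sham SFA replicate 1.

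**Figure D3:**
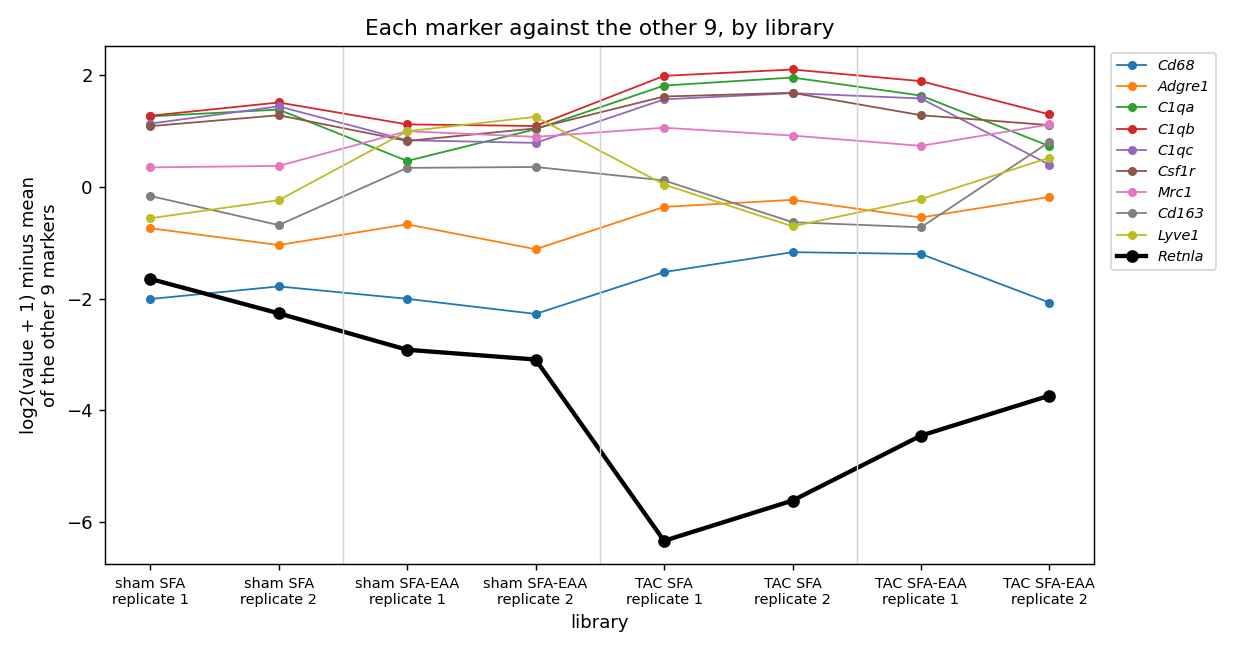
Log2(value + 1) of each marker minus the mean of the other 9 (vertical axis) in each of the 8 libraries (horizontal axis, grouped by operation and diet; lines join libraries only to guide the eye). Retnla (thick black line) lies between -1.65 and -3.09 in the sham libraries and between -3.74 and -6.34 after TAC.

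Over the 8 libraries, C1qa, C1qb and C1qc correlated with each other at Pearson's r of 0.89 to 0.94 on the log2 scale, and Cd68 correlated with C1qb at 0.97. Mrc1 correlated with Adgre1 at 0.85, and Cd163 with Lyve1 at 0.74. Lyve1 had r = -0.75 with C1qc and -0.60 with C1qa. With GC-corrected values these were -0.38 and -0.01, and that of Mrc1 with C1qa went from 0.34 to 0.95. As deposited, Retnla had r between -0.60 (C1qb) and 0.10 (Lyve1) with the others. These are descriptions over libraries that share groups, scaling and GC content differences, and the C1q genes are also alike in GC content (57.4% to 59.5%).

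The difference of the TAC effect between diets for Retnla was 3.00 log2 (SE 0.734, interval 1.34 to 4.66), the largest of the 10, but it did not pass over all genes (adjusted p = 0.785). No gene of the 16432 did by limma-trend (0%; 902 had an unadjusted p under 0.05). For the other 9 markers the difference lay between -0.58 (Lyve1) and 0.32 (Cd68). In sham hearts the SFA-EAA diet went with a Retnla change of -1.30 (SE 0.519, interval -2.47 to -0.12, adjusted p = 0.310), and after TAC with 1.70 (SE 0.519, interval 0.53 to 2.87, adjusted p = 0.203). Neither was called. In reads, the ratio of sham SFA over sham SFA-EAA was 3.33 (1.94 to 6.00) and that of TAC SFA-EAA over TAC SFA was 4 (12 against 3 reads, 1.08 to 22.1), again by counting error alone. These comparisons share libraries with the TAC contrasts.

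By diet, none of the 10 markers was called in sham hearts (0% of all genes called, 2437 with an unadjusted p under 0.05, limma-trend), after TAC (0.0487%) or averaged over operations (1.21%). Averaged, the complement chains had lower values with SFA-EAA, at -0.75 for C1qa (SE 0.171, adjusted p = 0.0643), -0.67 for C1qc (SE 0.156, adjusted p = 0.0658) and -0.51 for C1qb (SE 0.106, adjusted p = 0.0559). Csf1r was at -0.49 (adjusted p = 0.0774) and Cd68 at -0.41 (adjusted p = 0.251). Lyve1 stood at 0.73 (SE 0.263, adjusted p = 0.144), and Cd163, Retnla, Mrc1 and Adgre1 at 0.31, 0.20, 0.06 and -0.21. The ratio of Lyve1 to C1qa was 0.317 and 0.360 in sham SFA against 1.40 and 1.15 in sham SFA-EAA, with no overlap, but 0.329 and 0.187 against 0.311 and 0.877 after TAC, with overlap. Over 18 alternatives the averaged change kept its sign for C1qa (-0.91 to -0.16), C1qb (-0.58 to -0.08) and C1qc (-0.85 to -0.23). The number of markers called moved when replicate 1 of TAC SFA-EAA was left out, the only SFA-EAA library with a positive GC correlation (0.431). Calls over all genes rose in that fit as well.

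The diet values moved with GC content. C1qa, C1qb and C1qc have 57.4% to 59.5% GC, Csf1r 54.5% and Cd68 52.9%, whereas Mrc1, Lyve1, Retnla, Adgre1 and Cd163 have 43.4% to 47.9%. After the GC correction, the averaged diet change of C1qa was -0.16, that of C1qb -0.08, that of C1qc -0.23, that of Csf1r -0.26 and that of Cd68 -0.25. Lyve1 stayed at 0.62. None was called with the correction, beside 2.84% of all genes. In these libraries diet and GC content cannot be told apart in sham hearts, where both SFA libraries had positive correlations and both SFA-EAA libraries negative ones.

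**Figure D4:**
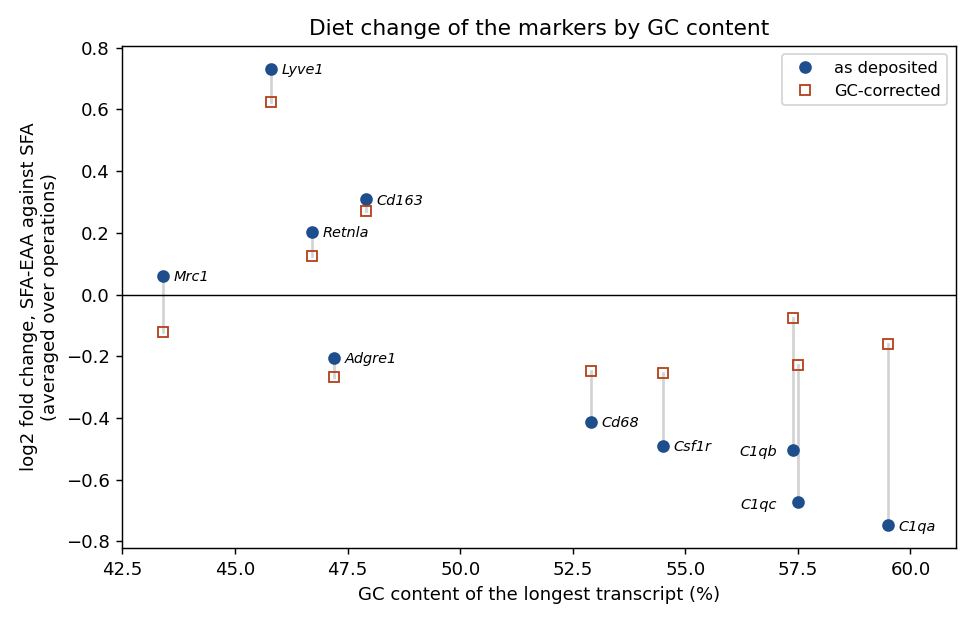
Log2 fold change of SFA-EAA against SFA averaged over operations (vertical axis) against the GC content of each marker's longest transcript (horizontal axis, percent); filled points are values as deposited and open squares GC-corrected values of the same gene. C1qa moves from -0.75 to -0.16 and Lyve1 from 0.73 to 0.62.

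Among other macrophage genes, few were called after TAC. Over all lists outside the 10 markers, fibroblast, complement and iron genes included, 12 genes were called after TAC averaged over diets. Over all genes tested, 2.11% were called. Each of the 12 calls was lost in some fits that left out 1 library, and all were lost without both libraries of high Myl7. With the GC correction all 12 were called, beside 6.19% of all genes. For diet averaged over operations, 6 listed genes were called, beside 1.21% of all genes. Each of these 6 calls was lost in most fits that left out 1 library, and all were lost without the high Myl7 pair. Of 20 further resident macrophage genes, 13 had positive averaged changes, 1 was called up and none down (median 0.16 against 0.01 over all genes). The 1 called was Fcgr1, the high-affinity receptor for IgG, at 10.4 and 7.28, 5.05 and 7.11, 22.8 and 23.9, and 16.4 and 17.8 in the order of groups used above (1.35, SE 0.260, adjusted p = 0.0373). All 4 TAC libraries were above all 4 sham libraries. Of 12 pan-myeloid genes all 12 were positive, with a median of 0.66, and 1 was called up: Itgb2, the common chain of the leukocyte integrins (1.28, SE 0.246, adjusted p = 0.0364). Of 14 genes of recruited monocytes 12 were positive, with a median of 0.93, and Vcan, a proteoglycan that fibroblasts make as well, was the only one called (1.26, SE 0.221, adjusted p = 0.0269). Ccr2, the chemokine receptor of recruited monocytes, had 12.2 and 5.37, 8.41 and 7.11, 12.3 and 19.2, and 17.5 and 25.9 (1.09, adjusted p = 0.144), and was named for its role after its values were seen.

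Upstream of Csf1r, its ligand Csf1 was measured at 171.2 and 180.8 in sham SFA, 140.0 and 151.4 in sham SFA-EAA, 217.2 and 256.0 in TAC SFA and 209.3 and 182.8 in TAC SFA-EAA. Its TAC libraries were all above its sham libraries, at 0.42 (SE 0.105, adjusted p = 0.0861). The second ligand, Il34, was at 0.02 (SE 0.280). Of 12 tested genes of this list all 12 were positive (median 0.60) and 1 was called up, Plcg2, a phospholipase downstream of immune receptors (1.13, SE 0.144, adjusted p = 0.0071). Csf2 and Csf3 were listed at 0 in all libraries. With SFA-EAA, Csf2rb, a shared receptor chain for IL-3, IL-5 and GM-CSF, was lower (-1.80, SE 0.346, adjusted p = 0.0494).

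Upstream of Retnla, the cytokines Il4 and Il13 were listed at 0 in all 8 libraries, as was Il10. Of the 17 tested genes of the IL-4, IL-13 and STAT6 list, 11 were positive after TAC averaged over diets (median 0.18) and none was called. Il4ra, the receptor chain, was at 102.4 and 103.6, 53.6 and 70.4, 194.8 and 119.9, and 112.8 and 99.9 (0.67, SE 0.173, adjusted p = 0.0949), and with the GC correction it was called up. Stat6 was at 252.9 to 328.1 in all libraries (0.21, SE 0.096, adjusted p = 0.354). Of other genes known to respond to IL-4 in mouse macrophages, Chil3 (Ym1) was at 0 and 0.936, 1.19 and 1.16, 0.939 and 1.59, and 5.10 and 3.54 in the order of groups. Its change after TAC averaged over diets was positive where that of Retnla was negative (0.98, SE 0.374, adjusted p = 0.254), at levels of a few reads. Arg1 was at 0 to 6.10 (0.35, SE 0.615, adjusted p = 0.854). Clec10a, a lectin receptor, was at 18.4 and 12.8 in sham SFA and 5.66 and 8.75 in TAC SFA (-1.02, SE 0.404, adjusted p = 0.313), but at 8.55 and 8.33 in sham SFA-EAA and 15.4 and 10.9 in TAC SFA-EAA (0.56, SE 0.404, adjusted p = 0.773). Neither pair of groups overlapped, the directions were opposite, and the difference between diets was not called (1.59, SE 0.572, adjusted p = 0.878). Its close relative Mgl2 was at 44.1 and 40.4 against 35.1 and 39.2 under SFA (-0.18, SE 0.263), and at 43.6 and 30.0 against 57.4 and 45.5 under SFA-EAA (0.49, SE 0.263, adjusted p = 0.661). Ccl24, also on the list, was at 7.845 and 6.43, 4.73 and 2.44, 0.921 and 4.14, and 2.085 and 4.86 in the order of groups. Its changes after TAC were the lowest of the 17 under SFA (-1.37) and averaged over diets (-0.71), at few reads. Averaged over diets, 6 of the 17 were negative. Stat6, Arg1, Clec10a, Mgl2 and Ccl24 were picked after their values were seen.

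Within the resistin family, Retn, an adipocyte hormone, was at 6.31 and 0.861, 2.45 and 3.48, 2.88 and 0.691, and 0 and 0 in the order of groups. Retnlg did not exceed 1.17 and Retnlb was listed at 0. Of 8 adipocyte genes 6 were tested, all 6 had negative changes after TAC averaged over diets (median -1.24) and none was called. The summed level of the list without Fabp4, which endothelium also makes, was 73.5 and 12.3 in sham SFA, 9.11 and 33.2 in sham SFA-EAA, 10.3 and 35.4 in TAC SFA, and 1.03 and 2.31 in TAC SFA-EAA. Adipoq, the defining gene, was at 16.1 and 3.55, 0.163 and 8.97, 0 and 3.33, and 0.0021 and 1.14. Replicate 1 of sham SFA had both the highest adipocyte sum and the highest Retnla value, while the lowest sums were in TAC SFA-EAA and the lowest Retnla values in TAC SFA. Mesothelial genes summed to 38.6 and 20.9, 59.0 and 49.0, 35.8 and 121.9, and 13.4 and 25.2. The part of either cell type in the Retnla result was not tested.

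Lyve1 is shared with lymphatic endothelium. Mmrn1, a lymphatic gene, was at 39.1 and 56.9, 85.4 and 71.9, 33.0 and 81.2, and 62.6 and 70.6, so sham SFA-EAA was above sham SFA for it as for Lyve1 (averaged diet change 0.54, SE 0.268, adjusted p = 0.265). Flt4, the receptor VEGFR3, lay the other way, at 94.4 and 106.4 in sham SFA and 67.8 and 69.5 in sham SFA-EAA (averaged diet change -0.53, SE 0.143, adjusted p = 0.0846, and -0.16 with the GC correction). Of the 6 tested lymphatic genes, Lyve1 included, 3 were positive and 3 negative with SFA-EAA in sham hearts, the negative ones being Flt4, Pdpn and Prox1, and none was called. Ccl21a was listed at 0. Prox1, which cardiomyocytes express too, fell after TAC under SFA (-0.90, SE 0.151, adjusted p = 0.0304; still called in 2 of 8 fits that left out 1 library, and at adjusted p = 0.843 without both libraries of high Myl7), with Lyve1 at 0.11 in that contrast. Under SFA-EAA Prox1 was at 270.4 and 269.4 in sham and 293.5 and 300.3 after TAC (0.14, SE 0.151, adjusted p = 0.867), and averaged over diets it was not called (-0.38, adjusted p = 0.123). Mmrn1 and Pdpn were picked after their values were seen. The part of lymphatic vessels in the Lyve1 values was not tested.

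Downstream of C1q, 22 other complement genes were tested, and 16 were positive after TAC averaged over diets (median 0.50). C4b, a substrate of the C1 complex, rose by 1.20 log2 (SE 0.191, adjusted p = 0.0186), and Serping1, the inhibitor of that complex, by 0.53 (SE 0.110, adjusted p = 0.0483). C4b was also lower with SFA-EAA (-1.18, SE 0.191, adjusted p = 0.0425). C1ra and C1s1, the proteases bound by C1q, stood at 0.50 (adjusted p = 0.107) and 0.26 (adjusted p = 0.351). Both C4b and Serping1 are made by fibroblasts as well, and fibroblast genes summed to 4407 and 4024 in sham SFA, 4553 and 3745 in sham SFA-EAA, 7691 and 11682 in TAC SFA, and 4129 and 5242 in TAC SFA-EAA. Of 7 fibroblast genes 6 were positive and 2 were called up, Postn (2.55, adjusted p = 0.0055) and Col1a2 (1.09, adjusted p = 0.0132). Their part in the complement values was not tested.

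Of the genes that handle haem and iron, the task that Cd163 begins, 11 were tested and 7 were positive. Hpx, the haem scavenger, was called up from values of at most 0.600 in the sham libraries to 2.81 to 25.5 after TAC (2.89, SE 0.528, adjusted p = 0.0299). Slc40a1, the iron exporter ferroportin, was called down, from 71.3 and 87.3 to 39.8 and 42.0 under SFA and from 146.7 and 155.7 to 65.7 and 90.8 under SFA-EAA (-0.95, SE 0.149, adjusted p = 0.0181). It was higher with SFA-EAA (0.92, SE 0.149, adjusted p = 0.0432). Among 13 tested scavenger and lectin receptors 9 were positive, and the only one called was Mrc2, the collagen-binding relative of Mrc1 (1.11, SE 0.150, adjusted p = 0.0090). Mrc2 is expressed by fibroblasts, and it was lower with SFA-EAA (-1.04, adjusted p = 0.0325).

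Levels of genes that mark other leukocytes were low. The summed level of 7 neutrophil genes was 3.12 to 43.9, with Ly6g at 0 in all libraries, that of 9 T and NK cell genes 6.16 to 21.5 and that of 5 B cell genes 4.47 to 12.4. No gene of these 3 lists was called after TAC averaged over diets. Of 7 tested dendritic cell genes, Itgax (CD11c), which macrophages also express, was called up (2.12, SE 0.437, adjusted p = 0.0463) from 0 to 1.28 in sham libraries to 3.68 to 9.57 after TAC. Mast cell genes (2 of 5 positive), endothelial genes (3 of 7), cardiomyocyte genes (2 of 8), mesothelial genes (4 of 7), atrial genes (1 of 5), lymphatic genes (3 of 6, Lyve1 included) and erythroid genes (5 of 5, haemoglobin genes and Alas2) had no call in that contrast.

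Among 11727 genes with a mean value of at least 5, the 5 whose log2 levels followed Retnla most closely over the 8 libraries were Epha4, an ephrin receptor (r = 0.97, rho = 0.95), Slc7a1, a transporter of cationic amino acids (r = 0.96, rho = 0.81), Reep1 (r = 0.96), Grb14, an adaptor that binds the insulin receptor (r = 0.96), and Armt1 (r = 0.96). They were picked as the highest of all genes. Epha4, for example, was at 305.4 and 275.5 in sham SFA, 220.1 and 220.4 in sham SFA-EAA, 149.1 and 129.1 in TAC SFA, and 187.8 and 209.7 in TAC SFA-EAA, the same order of groups as Retnla with a narrower range. The 5 most like the mean of the other 9 markers were Aldh1a2, which makes retinoic acid (r = 0.99), Ccnb2, a cyclin of mitosis (r = 0.98), Fcgr3, an IgG receptor of myeloid cells (r = 0.97), Fuca2 (r = 0.96) and Fut2 (r = 0.96). Ccnb2 was at 1.30 to 6.09 in sham libraries and 3.11 to 13.4 after TAC, so it rests on few reads.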

How the data were processed

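Per the labels' protocols, stranded polyA libraries of left ventricle RNA were run on a NextSeq 500. The submitters' processing notes name STAR 2.5, GRCm38 and edgeR, from which the authors' normalized values came. For the counter, annotation release, strand use and filters the steps are not given in the sources used. The deposited table holds 1 normalized signal per gene and library; values are not whole numbers, so no count test was run, and exact depth is unknown.

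Limma-trend (limma 3.58.1, R 4.3.3) was fitted to log2(value + 1) for 16432 genes, those reaching 1 in 2 or more libraries. All 4 groups entered 1 fit with a common spread, which gave 7 comparisons, two-sided, with Benjamini-Hochberg adjustment over all genes and a threshold of 0.05. Log2 changes are on that scale, which understates the change of low genes. In a simulation of TAC against sham with SFA (16432 genes), 2, 16, 35 and 47 of 50 genes changed 1.5, 2, 4 and 8-fold were recovered, with 4 false calls. The changed genes were drawn from those above a minimum mean level. The simulated noise was independent between genes, without the shared differences by GC content or Myl7. It therefore does not give the error rate in these libraries. The GC correction subtracted a loess curve (span 0.3) of each library's deviation on GC content, fitted to genes with a mean of at least 20. Transcripts came from GENCODE, which matched 49326 of 49671 genes, 91.5% with identical coordinates. GC content is that of the longest transcript, and lengths are the deposited table's.

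The members, gene lists and tests were chosen with earlier results of these data known. Besides the 10 markers, the text names genes of each list that were called (up to 4), otherwise up to 2 with the smallest p after TAC averaged over diets, list genes at 0, and the 5 genes most like Retnla and most like the mean of the other 9 (Pearson, 8 libraries, mean of at least 5, predicted models left out). Some further list genes are named as examples of their role. Alternatives were another pseudocount, filter, scaling or normalization, library weights, a replicate block, the GC correction, only the groups compared, and each library left out, where the remaining library of a group is assumed to vary like the others. Leaving out both libraries of high Myl7, and single libraries with the GC correction, was added after seeing the data.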

Additional observations from a re-analysis of the deposited data

Results flagged for a closer look

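The difference of the TAC effect on Retnla between diets stood out because the diet changes had opposite signs in sham and TAC hearts: it was 3.00 on the log2(value + 1) scale (SE 0.734). Both sham SFA-EAA libraries (9.88 and 9.61) were below both sham SFA libraries (37.0 and 17.3), and both TAC SFA-EAA libraries (4.11 and 9.20) were above both TAC SFA libraries (0.932 and 1.55). In reads, TAC SFA rested on about 1 and 2 and TAC SFA-EAA on about 4 and 8. The share of all genes that separated in both of these ways was not counted. The test of the difference did not pass over all genes (adjusted p = 0.785, limma-trend), and the adjusted p ranged from 0.224 to 1 over 18 alternatives, in all of which the difference kept its sign (2.47 to 3.52).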

How the results depend on the processing

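Of the markers, 1 was called after TAC under SFA, where 137 of 16432 genes were called up and 68 down. This became 0 with no filter on low values (116 up and 81 down of 20568 genes). It became 2 with library weights (C1qb joined Retnla, beside 390 up and 338 down of 16432 genes). With only the groups compared, 0 markers and 0 genes were called. The count also moved when single libraries were left out. After TAC averaged over diets the count of 2 became 0 with no filter, 7 with the GC correction, 0 to 3 with single libraries left out and 1 to 6 with single libraries left out of the GC-corrected values. By diet the count of 0 became 2 in sham with library weights, beside 190 genes up and 401 down of 16432. Averaged over operations it became 3 with a minimum value of 5 (260 up and 368 down of 13011 genes). With library weights it became 2 (258 up and 415 down of 16432 genes), against 80 up and 119 down in the main fit. Leaving out single libraries also moved the count in sham, after TAC and averaged over operations. Without both libraries of high Myl7, 0 markers were called in either TAC contrast. The difference between Retnla and the other 9 after TAC under SFA was -4.59 with a pseudocount of 0.25, against -4.02. The averaged diet change of Retnla (0.20) reversed when replicate 2 of sham SFA (-0.0602) or replicate 2 of TAC SFA-EAA (-0.0466) was left out, with a range of -0.06 to 0.57 when libraries were left out; none was called.

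Replicate numbers were shared between groups, and the deviations of same-numbered libraries correlated at -0.269 to 0.039. Each deviation was from a mean of 2 libraries, some of which also differed by GC content or Myl7. These correlations therefore cannot decide whether equal numbers share a batch or animal, which is not labelled. With the replicate block 1 marker was called after TAC averaged over diets and, with the block and GC correction together, 4. Calls over all genes fell from 205 to 96 under SFA and from 347 to 147 averaged.

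With no filter the adjusted p was 0.0572 for Retnla under SFA, 0.0771 for Retnla averaged and 0.0636 for C1qb averaged. Retnla under SFA stayed called under 10 of 19 alternatives and kept its sign in all 19; averaged over diets, C1qb stayed called under 11 of 18 and Retnla under 8 of 18, both with 1 sign throughout. Retnla in TAC SFA, at about 1 and 2 reads, is at the limit of the depth.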
